A study of Mus musculus with 7 samples.

Results

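Transcripts of the galectin family were examined in microglia isolated from transplants of healthy embryonic cortex in a mouse model of amyloid disease. The set comprised 6 genes, namely Lgals1, Lgals3, Lgals3bp, Lgals4, Lgals8 and Lgals9, which were picked by symbol from the 55341 gene names of the deposited count table. Further names of the family are described after them. Of the 6 gene symbols, 5 encode galectins proper, whereas Lgals3bp encodes a secreted glycoprotein that galectins bind and that does not itself have the galectin fold. All 6 genes passed the filter on low counts, which left 15257 genes for testing.

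The libraries were bulk RNA-seq of microglia gated as CD11b+ CD45low, and for the gate the methods refer to an assay whose antibody panel included Ly6C and Ly6G. All host animals were female 5xFAD mice on a C57BL/6 background, which carry human APP and PS1 transgenes with familial Alzheimer's disease mutations under the neuronal Thy1 promoter, so that both groups came from amyloid-bearing brain. The mice were 14 weeks old, 4 weeks after cells of embryonic WT C57BL/6 cortex had been injected into the cortex. Microglia from the graft gave the group called inside graft (n = 3 libraries), and microglia from small pieces of host cortex close to the transplant gave the group called outside graft (n = 4 libraries). No group of 5xFAD mice without a transplant and no group of WT mice was part of the comparison. Because the sources used here do not say whether each library came from a separate mouse or whether inside and outside libraries shared mice, the P values measure the spread between these libraries, which may be partly technical.

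Galectins are small soluble lectins that recognise β-galactosides, above all N-acetyllactosamine chains, on glycoproteins and glycolipids. They are made in the cytosol and leave the cell without a signal peptide, so the same protein can crosslink receptors at the cell surface or mark glycans exposed on ruptured endosomes and lysosomes inside the cell. Galectin-1 is a prototype galectin that forms dimers, galectin-3 is the chimeric form with a collagen-like tail through which it oligomerises, and galectins 4, 8 and 9 carry a pair of different carbohydrate-binding domains on 1 chain. In brain, galectin-3 is best known from microglia around amyloid plaques and after injury, where it has been described as a partner of TREM2 and TLR4.

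The depth was similar in both groups, with 23241114 to 25882122 counts per library inside the graft and 18644807 to 24599193 outside it. Microglial markers were abundant in both groups. The mean of Cx3cr1, the fractalkine receptor, was 6478 ± 384 CPM inside (SD, n = 3) and 7389 ± 599 CPM outside (SD, n = 4), where CPM are TMM-normalized counts (reads) scaled to the same library size. The 10 homeostatic microglial markers summed to 46890 to 53770 CPM inside and 53620 to 59770 CPM outside. Transcripts of other blood cells were also present. The summed level of the 6 neutrophil markers ran from 647.8 to 13620 CPM inside and from 0.311 to 290.0 CPM outside, and that of the 10 monocyte markers from 97.2 to 1412 CPM inside and from 18.6 to 41.3 CPM outside. Inside the graft, most of the mean monocyte sum came from Chil3 (means of 614.3 CPM inside and 4.09 CPM outside). The monocyte sums given below are therefore largely those of 1 gene in the inside libraries. Lymphocyte markers summed to 1.15 to 13.3 CPM inside and to at most 0.483 CPM outside, with Ms4a1, Ncr1 and Trbc2 at 0 counts throughout. Of the neutrophil and monocyte markers, 6 of 6 and 9 of 10 had a higher fitted level inside, and 0 passed an adjusted P of 0.05 in either of the tests used here, edgeR's quasi-likelihood test (called edgeR below) and limma's voomWithQualityWeights (5 and 6 at an unadjusted P below 0.05 in edgeR, 4 and 3 in voomWithQualityWeights, 2 and 1 by adjusted P in DESeq2). The 9 markers of border-associated macrophages summed to 395.8 to 635.0 CPM inside and 533.7 to 632.9 CPM outside, most of it from Stab1 (means of 477.0 and 579.8 CPM). The other 8 markers summed to 102, 17.0 and 97.4 CPM in inside graft 1, 2 and 3 and to 6.32 to 15.0 CPM outside, a split made after the values were seen. Of the 8 tested markers in this list, 7 had a higher fitted level inside, with a median log2 fold change of 2.91, such as Mrc1 (means of 39.2 and 9.11 CPM) and Pf4 (means of 10.6 and 0.418 CPM). None passed an adjusted P of 0.05 by either test (5 at an unadjusted P below 0.05 in edgeR, 6 in voomWithQualityWeights, 2 by adjusted P in DESeq2). All 10 homeostatic microglial markers had a lower fitted level inside, with a median log2 fold change of -0.20 in edgeR. In 4 of them all inside libraries were below all outside libraries (5.02% of all tested genes). At an unadjusted P below 0.05 were 6 in each test (9.55% of all tested genes in edgeR, 12.2% in voomWithQualityWeights), and 0 passed an adjusted P of 0.05. DESeq2 called 2 by adjusted P (2.75% of all tested genes). Marker sums are set beside the galectins below. In bulk samples, a smaller or larger number of cells of a type and a different amount of RNA per cell cannot be told apart.

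To place the genes on the genome (GRCm38, GENCODE M21), all 6 were annotated as protein-coding, and the exon bases of the annotation equalled the gene length in the count table. Lgals3 lies at chr14:47367751-47386160 on the plus strand with 8 merged exons, and Lgals3bp at chr11:118392751-118402092 on the minus strand with 6. Lgals1 lies at chr15:78926725-78930465 on the plus strand with 5 merged exons. The genes with paired domains are Lgals4 at chr7:28833854-28841708 on the plus strand, Lgals8 at chr13:12439415-12464944 on the minus strand and Lgals9 at chr11:78962974-78984946 on the minus strand. Only Lgals8 shared exon bases with another gene, 155 bases (4.20% of its exon bases) with Heatr1 on the opposite strand, and reads there could not be told apart because strand was not used in counting. Reads with several alignments were not counted, which can lower a gene with near-identical copies. The pseudogenes Lgals1-ps1 and Lgals1-ps2 had 0 counts in 7 libraries. Reads shared between a gene and its copy are left out for both, so these counts cannot show whether Lgals1 lost reads.

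The promoters of the family are shown because interferon-response genes were among the transcripts set beside the galectins, and interferon-response elements could be searched by their letters. The RefSeq promoter table (GRCm38.p6, 250 bases before to 50 bases after a gene's start) held 5 of the 6 genes, all but Lgals1. The core of the interferon-stimulated response element, GAAA and GAAA with 2 free bases between them on either strand, was found in 3.44% of all 32851 promoters in the table, and among the galectin genes it was found in Lgals9 alone, with first bases at position -55 and at position 16 relative to the start. A shorter core of the sites bound by interferon regulatory factors, AANNGAAA, which was added after the promoters had been seen and overlaps the longer one, occurred in 23.9% of all promoters. It matched Lgals9 also at position -151 and Lgals3bp at position -14. The RefSeq starts were not the ends of the GENCODE genes given above. The windows of Lgals3 and Lgals8 lay inside these genes, and those of Lgals3bp and Lgals9 did so in part. Of the 250 bases before the Lgals3bp start, 133 were annotated as untranslated region of Lgals3bp itself, the match at -14 included. The 30 bases shown for Lgals3bp run past that start. For Lgals9, 22 of the 250 bases before the start were annotated as its own untranslated region. The stretch shown for Lgals9 ends 23 bases before the start, so its match at position 16 is not in it. The AP-1 site TGANTCA occurred in 7.81% of all promoters and in none of the 5 galectin promoters, and none of these letters was found in the windows of Lgals3, Lgals4 and Lgals8. Below, capitals mark the matches, each sequence is written 5′ to 3′ on the strand of its gene, and Lgals3 is given as the gene with the lowest P value of the family. The stretches are chr11:78984947-78985174 for Lgals9 (minus strand), 30 bases at chr11:118401955-118401984 for Lgals3bp (minus strand) and chr14:47373610-47373812 for Lgals3 (plus strand).
Lgals9: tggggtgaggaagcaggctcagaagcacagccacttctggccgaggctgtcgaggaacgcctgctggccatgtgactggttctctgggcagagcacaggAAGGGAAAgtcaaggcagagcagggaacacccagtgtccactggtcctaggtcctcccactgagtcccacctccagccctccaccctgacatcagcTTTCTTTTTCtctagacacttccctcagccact
Lgals3bp: tgttttctgaaAATCGAAActaggtgaggt
Lgals3: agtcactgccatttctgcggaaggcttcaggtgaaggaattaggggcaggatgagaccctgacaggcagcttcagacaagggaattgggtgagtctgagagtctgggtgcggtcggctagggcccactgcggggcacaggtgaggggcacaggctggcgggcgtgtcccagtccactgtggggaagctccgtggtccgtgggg

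Comparing microglia inside with those outside the graft asks whether the local surroundings of microglia go along with a different transcriptome. Among the galectin genes, 1 of 6 was called at an adjusted P of 0.05, Lgals3, which rose inside the graft in both tests. The same threshold called 0.0983% of all tested genes in edgeR (15 genes) and 0.492% in voomWithQualityWeights (75 genes). DESeq2, run as an alternative, called 2 of 6, Lgals3 and Lgals3bp, against 2.75% of all genes. At the adjusted P of 0.01 named in the study's methods, neither test called a galectin gene, with 0 genes called in edgeR (1457, or 9.55% of genes, at an unadjusted P below 0.05) and 0.0197% of all genes in voomWithQualityWeights (12.2% at an unadjusted P below 0.05). In 3 of the 6 genes, Lgals1, Lgals3 and Lgals3bp, all inside libraries exceeded all outside libraries, which held for 5.65% of all tested genes. In Lgals4 all inside libraries were below all outside libraries, which held for 5.02% of them. Lgals8 and Lgals9 overlapped between groups. The median log2 fold change was 0.53 over the 6 genes and -0.0064 over all tested genes in edgeR.

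**Figure D1:**
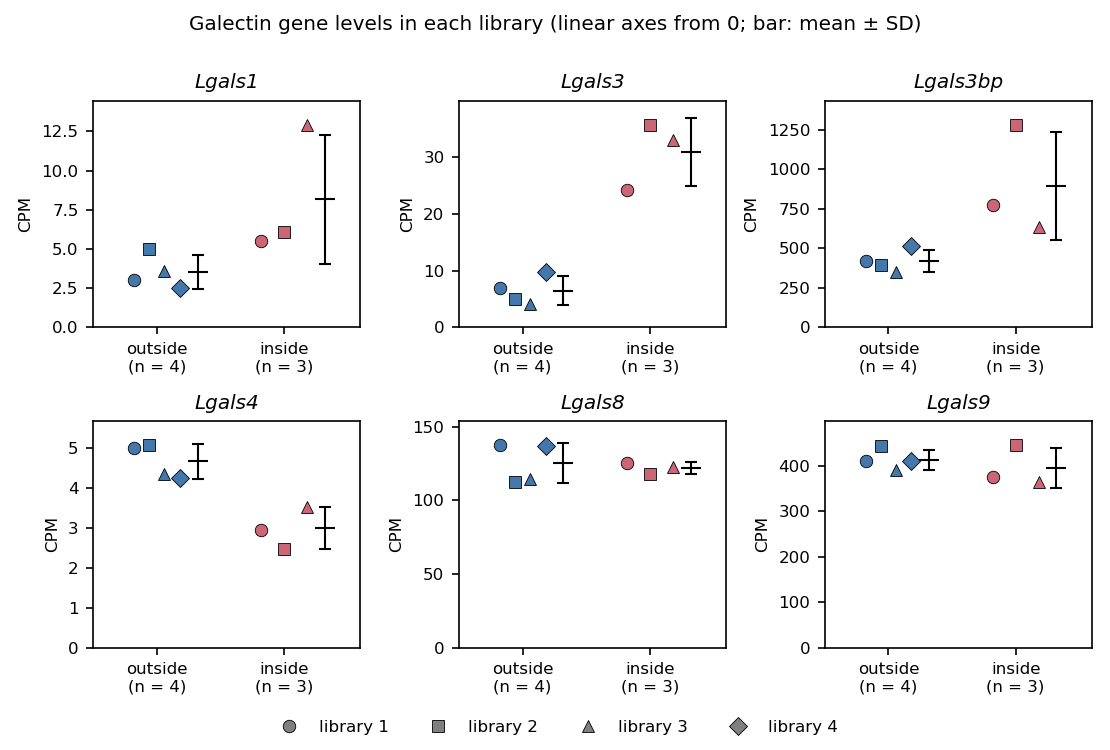
Level of each galectin gene in each library in CPM (linear axes from 0; symbols mark the library number, blue outside and red inside graft; bars show mean ± SD, n = 4 and n = 3). Lgals3 sat between 24.1 and 35.6 CPM inside and between 4.06 and 9.80 CPM outside, whereas the libraries of Lgals8 and Lgals9 overlapped.

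Lgals3, which encodes the chimeric galectin-3, reached 24.1, 35.6 and 33.0 CPM in inside graft libraries 1, 2 and 3 (615, 803 and 784 counts). Outside the graft it was at 6.88, 5.03, 4.06 and 9.80 CPM in libraries 1 to 4 (129, 113, 101 and 242 counts). The lowest inside library thus lay above the highest outside library, and outside graft 4 stood highest of its group. The fold change was 4.80 (95% confidence interval 2.98 to 7.72) in edgeR, a log2 fold change of 2.26 (SE 0.31) with a Benjamini-Hochberg adjusted P of 0.0368. In voomWithQualityWeights the log2 fold change was 2.28 (SE 0.31, adjusted P = 0.0195). Lgals3 ranked 10 among the 15257 tested genes by P in both tests. The edgeR call was lost on removal of any library other than inside graft 2, with adjusted P values between 0.0556 and 0.126, and was kept without inside graft 2 (adjusted P = 0.0476). In voomWithQualityWeights it was lost without outside graft 3 (adjusted P = 0.116) or outside graft 4 (adjusted P = 0.075).

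Against the mean of the outside libraries, Lgals3 was 3.75-fold in inside graft 1, 5.53-fold in inside graft 2 and 5.13-fold in inside graft 3. Its highest level, in inside graft 2, was found in the inside library with the lowest sums of neutrophil (647.8 CPM), monocyte (97.2 CPM) and border-associated macrophage markers (17.0 CPM without Stab1). Inside graft 3, with the highest neutrophil and monocyte sums (13620 and 1412 CPM), had more Lgals3 than inside graft 1 (6486 and 686.6 CPM). Outside graft 3, with the highest neutrophil sum of its group (290.0 CPM), had the lowest Lgals3 level of all libraries. Outside graft 4, with the highest monocyte sum (41.3 CPM) and the next highest neutrophil sum (18.1 CPM) of its group, had the highest outside Lgals3 level. Like Lgals3, the neutrophil, monocyte and border-associated macrophage sums (the last without Stab1) were higher in every inside library than in every outside library. Within the groups, the order of Lgals3 followed these sums in some libraries and not in others. The part of such cells in the difference was not tested.

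The plaque-associated microglia list, genes such as Apoe, Clec7a and Itgax that microglia express at amyloid deposits, had its highest sum in inside graft 2 as well (52180 CPM). Inside graft 1 and 3 had sums of 35160 and 28290 CPM, and the sum ranged from 19430 to 27500 CPM outside. Ctsd was the largest part of this sum (means of 16160 CPM inside and 11810 CPM outside), whereas Itgax had means of 103.7 and 36.5 CPM. Over the inside libraries, Lgals3 (inside graft 2 highest, inside graft 1 lowest) had the order of the interferon-response sum given below and not that of the plaque-associated sum, which was lowest in inside graft 3. Of the 16 plaque-associated genes, 16 had a higher fitted level inside. At an unadjusted P below 0.05 were 16 in each test (9.55% of all tested genes in edgeR, 12.2% in voomWithQualityWeights). At an adjusted P of 0.05, 3 rose in edgeR (0.0983% of all tested genes called), 4 in voomWithQualityWeights (0.492%) and 8 in DESeq2 (2.75%). In 9 of them all inside libraries exceeded all outside libraries, which held for 5.65% of all tested genes. The 8 proliferation genes summed to 94.2 to 145.6 CPM inside and to 7.93 to 40.1 CPM outside. Against the same shares of all tested genes, 0 were called at an adjusted P of 0.05 in edgeR, 4 in voomWithQualityWeights and 5 in DESeq2. At an unadjusted P below 0.05 were 8 in edgeR and 8 in voomWithQualityWeights. In all 8 genes the inside libraries all exceeded the outside libraries. The part of these lists, interferon-response genes included, in the Lgals3 difference was not tested.

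Lgals3bp, the glycoprotein ligand of galectins, was the most abundant transcript of the set inside the graft. It reached 773.9, 1279 and 632.9 CPM in inside graft libraries 1 to 3. Outside the graft it was at 417.1, 391.4, 348.1 and 512.6 CPM in libraries 1 to 4. No inside library reached down to the outside range, and inside graft 2 stood far above the others. The fold change was 2.15 (95% confidence interval 1.52 to 3.02), which missed the threshold with an adjusted P of 0.0922 in edgeR (unadjusted P = 0.000568). In voomWithQualityWeights the log2 fold change of 1.04 (SE 0.21) missed it with an adjusted P of 0.0552. The call depended on the filter, since keeping only genes that reached 10 counts in all 7 libraries gave an adjusted P of 0.022 in edgeR and 0.0155 in voomWithQualityWeights. Without inside graft 2, the edgeR log2 fold change was 0.75.

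Per inside library, Lgals3bp stood at 1.86, 3.06 and 1.52 times the outside mean. The interferon-response list, which holds transcripts such as Ifit3, Isg15 and Oasl2 that type I interferon induces, followed the order of Lgals3bp only in part. Its sum was 531.6, 941.7 and 622.3 CPM in inside graft 1, 2 and 3, against 472.1, 288.5, 291.6 and 425.2 CPM in outside graft 1 to 4. Inside graft 2 was highest for both, inside graft 3 was lowest for Lgals3bp and inside graft 1 for the interferon sum, and outside graft 1 and 4 were the higher pair of the outside libraries for both. Of the 11 interferon genes, 11 had a higher fitted level inside and 0 passed an adjusted P of 0.05 by either test. At an unadjusted P below 0.05 were 9 in each test (9.55% of all tested genes in edgeR, 12.2% in voomWithQualityWeights). DESeq2 called 4 by adjusted P (2.75% of all tested genes). In 7 of the 11 all inside libraries exceeded all outside libraries, which held for 5.65% of all tested genes. The plaque-associated sum had the order of Lgals3bp over the inside libraries (35160, 52180 and 28290 CPM in inside graft 1, 2 and 3) but not over the outside libraries, where it was highest in outside graft 2 (27500 CPM). The part of either list in the Lgals3bp difference was not tested.

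**Figure D2:**
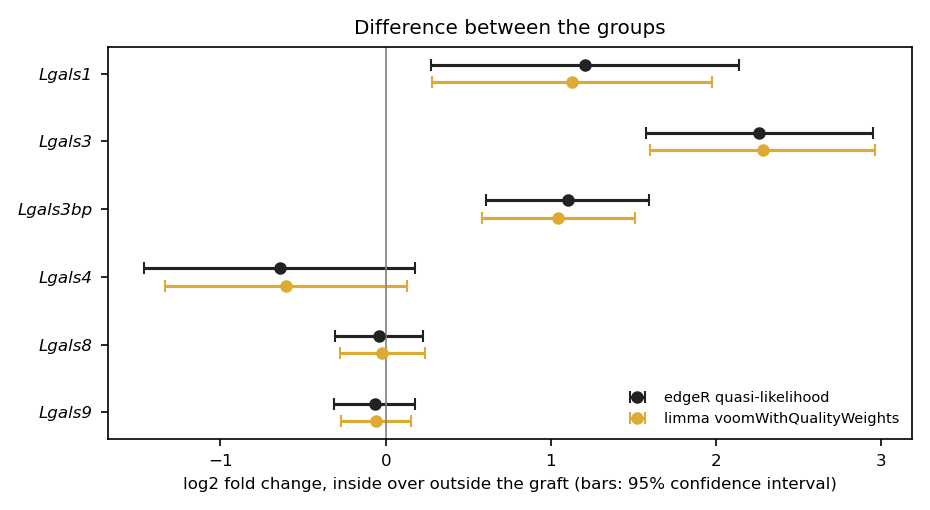
Log2 fold change of the galectin genes inside over outside the graft, in edgeR and in voomWithQualityWeights, with 95% confidence intervals over 7 libraries. The intervals of Lgals1, Lgals3 and Lgals3bp lay above 0 in both tests, but Lgals3 alone passed an adjusted P of 0.05.

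Lgals1, the gene of the dimeric prototype galectin, was a low transcript in these microglia. It reached 5.50, 6.08 and 12.9 CPM in inside graft 1, 2 and 3 (140, 137 and 306 counts). In outside graft 1 to 4 it was at 3.04, 4.98, 3.58 and 2.51 CPM (57, 112, 89 and 62 counts). The groups did not overlap, but inside graft 1 exceeded outside graft 2 by little, and inside graft 3 lay well above the other inside libraries. The fold change of 2.31 (95% confidence interval 1.21 to 4.40) did not pass, with an adjusted P of 0.341 in edgeR and 0.251 in voomWithQualityWeights. Without inside graft 3, the edgeR log2 fold change went from 1.21 to 0.71. Inside graft 3 was also the library with the highest sums of neutrophil (13620 CPM), monocyte (1412 CPM) and lymphocyte (13.3 CPM) markers. Inside graft 1, with neutrophil and monocyte sums of 6486 and 686.6 CPM, had less Lgals1 than inside graft 2 (647.8 and 97.2 CPM). Like Lgals1, the neutrophil, monocyte and lymphocyte sums were higher in every inside library than in every outside library. The part of such cells in the Lgals1 difference was not tested.

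**Figure D3:**
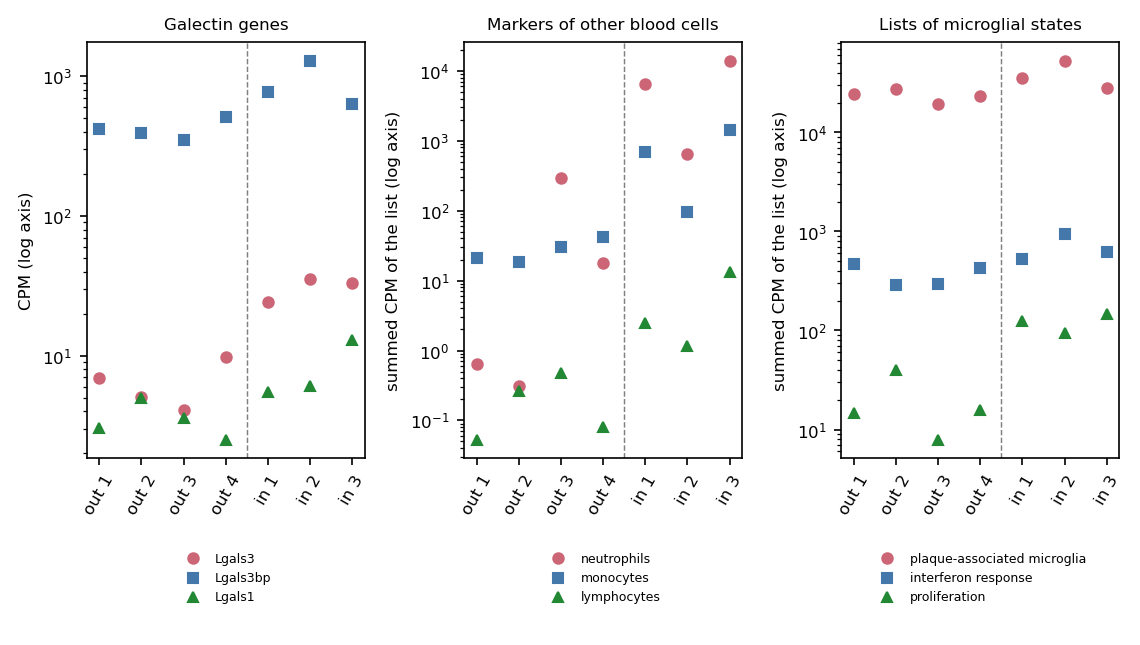
Lgals1, Lgals3 and Lgals3bp in CPM beside the summed CPM of markers of other blood cells and of lists of microglial states, for each library (log axes; out 1 to out 4 are outside graft, in 1 to in 3 inside graft). Neutrophil markers were lowest of the inside libraries in inside graft 2 (647.8 CPM), where Lgals3 and Lgals3bp were highest, and highest in inside graft 3 (13620 CPM), where Lgals1 was highest.

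The genes with paired carbohydrate-binding domains showed no called difference. Lgals4, best known from the gut epithelium, had the lowest level of the set per exon length in both groups, and was at 2.94, 2.49 and 3.54 CPM in inside graft 1 to 3 (75, 56 and 84 counts). Outside the graft it was at 5.02, 5.07, 4.35 and 4.25 CPM in libraries 1 to 4. Each inside library lay below each outside library. The fold of 0.641 (95% confidence interval 0.363 to 1.13) had an adjusted P of 0.651 in edgeR and 0.527 in voomWithQualityWeights.

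Lgals8 encodes a galectin that binds glycans on damaged vesicles and recruits autophagy receptors to them. It stood at 125.5, 117.6 and 122.7 CPM in inside graft 1 to 3. In outside graft 1 to 4 it was at 137.2, 112.7, 114.5 and 137.0 CPM. All inside libraries fell within the range of the outside libraries. The fold was 0.973 in edgeR, with an interval of 0.81 to 1.17 (95% confidence, adjusted P = 0.96).

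Lgals9, which encodes a ligand of the checkpoint receptor TIM-3 (Havcr2), was the most abundant galectin proper in both groups. It stood at 376.0, 444.6 and 363.3 CPM in inside graft 1 to 3. In outside graft 1 to 4 it was at 409.4, 443.3, 389.7 and 410.7 CPM. The groups overlapped, with inside graft 2 highest and inside graft 3 lowest of all 7 libraries. The fold was 0.955 with an interval of 0.805 to 1.13 (adjusted P = 0.918 in edgeR, 0.879 in voomWithQualityWeights). For this gene, whose promoter held the matches to the interferon-stimulated response element, the means were 394.7 ± 43.7 CPM inside (SD, n = 3) and 413.3 ± 22.2 CPM outside (SD, n = 4).

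Levels of different genes were compared per length, as RPKM (CPM per kilobase of exon). Outside the graft the order was Lgals9 (193.4 ± 10.4 RPKM, SD, n = 4), Lgals3bp (146.6 ± 24.4), Lgals8 (34.0 ± 3.69), Lgals1 (3.91 ± 1.18), Lgals3 (3.47 ± 1.36) and Lgals4 (2.02 ± 0.187). The first 3 were separated from their next neighbour in every library and without overlap of their ranges. Lgals1 was above Lgals3 in 2 of 4 outside libraries only, and the ranges of Lgals3 and Lgals4 overlapped. Inside the graft the order was Lgals3bp (314.4 ± 119, SD, n = 3), Lgals9 (184.7 ± 20.5), Lgals8 (33.1 ± 1.08), Lgals3 (16.7 ± 3.24), Lgals1 (9.03 ± 4.55) and Lgals4 (1.29 ± 0.228). Here the ranges of Lgals3 and Lgals1 overlapped although Lgals3 was above Lgals1 in 3 of 3 libraries.

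The order of the mean levels therefore differed between the groups by exchanges of Lgals3bp with Lgals9 and of Lgals3 with Lgals1. Only the exchange of Lgals3bp with Lgals9 held in every library. The ratio of Lgals3bp to Lgals9 in RPKM was 1.54, 2.16 and 1.31 in inside graft 1 to 3. In outside graft 1 to 4 the same ratio was 0.765, 0.663, 0.671 and 0.937. It lay above 1 in every inside library and below 1 in every outside library. The ratio of Lgals3 to Lgals1 ran from 1.25 to 2.85 inside and from 0.490 to 1.90 outside, so that these ranges overlapped. Between the genes without a called difference, Lgals8 to Lgals9 gave 0.153 to 0.196 inside and 0.147 to 0.194 outside.

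**Figure D4:**
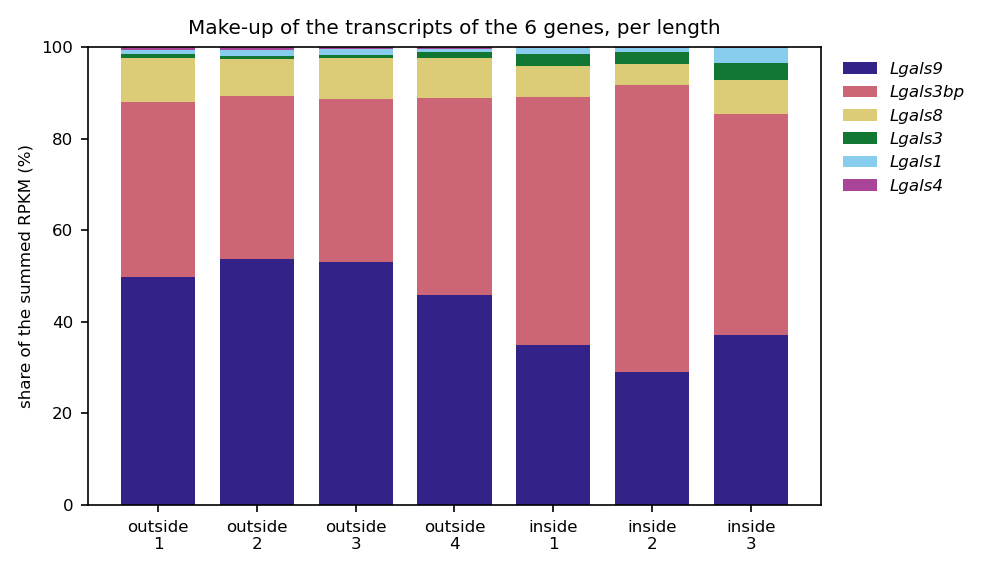
Share of each gene in the summed RPKM of the 6 galectin genes, in percent, for each library (stacked bars from 0 to 100%). Lgals3bp held 48.4 to 62.7% of the sum inside and 35.6 to 42.9% outside, and Lgals9 held 29.1 to 37.0% inside and 45.8 to 53.8% outside.

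As a share of the summed RPKM of the 6 genes, Lgals3bp took 55.1 ± 7.20% inside (SD, n = 3) and 38.1 ± 3.46% outside (SD, n = 4). The share of Lgals9 was 33.7 ± 4.15% inside and 50.6 ± 3.62% outside. Lgals3 remained a small part of the set in both groups, with 3.05 ± 0.717% inside and 0.890 ± 0.283% outside. Shares of 1 sum are not independent of each other, and a larger Lgals3bp level lowers the others. The summed RPKM was 502.2, 716.1 and 459.1 in inside graft 1 to 3 and 343.8 to 419.3 outside.

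Across the 7 libraries, log2 CPM of Lgals3 and Lgals3bp correlated with Pearson's r = 0.905, and Lgals4 ran opposite to Lgals3bp (r = -0.944) and to Lgals3 (r = -0.869). Lgals1 and Lgals3 gave r = 0.683. These values describe 7 points that share the split into groups, so a pair of genes that both differ between groups correlates through the groups. Among tested genes with a mean of at least 10 CPM, the transcripts most like Lgals3 were Pvt1 (r = 0.990), Oas2 (r = 0.987) and Srebf2 (r = 0.981), of 8916 compared. Oas2, an interferon-induced oligoadenylate synthetase, had means of 26.3 CPM inside and 6.04 CPM outside. Srebf2, the transcription factor of cholesterol synthesis, had means of 59.4 and 36.0 CPM. Those most like Lgals3bp were Fam20c (r = 0.989), a kinase of secreted proteins, Gm1966 (r = 0.987) and Dgkz (r = 0.981), a diacylglycerol kinase. Lgals1 was most like Trip12, Clp1 and Pilra (r = 0.969 to 0.992), and Lgals4 most like A430033K04Rik, Porcn and Gm3739 (r = 0.962 to 0.969). For Lgals8 they were Slc9a7, Dstyk and Pcif1 (r = 0.953 to 0.989), and for Lgals9 Rnf166, Srsf9 and Cd300c2 (r = 0.974 to 0.995). An r of at least 0.9 was reached by 72 genes for Lgals3 and by 74 for Lgals3bp, but also by 51 for Lgals9, which had no group difference.

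The other names of the family contributed little. Lgals2, Lgals7, Lgals12 and Grifin were under 1 CPM in every library, and Lgals6 matched no row. Lgalsl, the galectin-like gene, was at 4.63 to 6.56 CPM inside and at 1.87 to 8.38 CPM outside, with a log2 fold change of 0.17 (adjusted P = 0.958 in edgeR). Its inside range lay within the outside range.

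Galectins bind the glycans that cells make, so the enzymes that build or cap lactosamine chains were described next. Of the 9 tested branching and lactosamine enzymes (of 11), 4 had a higher and 5 a lower fitted level inside, with a median log2 fold change of -0.15. None passed an adjusted P of 0.05 in edgeR (3 at an unadjusted P below 0.05, against 9.55% of all tested genes). In voomWithQualityWeights (0.492% of all tested genes called) and in DESeq2 (2.75%), 1 rose. That gene was Gcnt2, the enzyme that branches poly-lactosamine chains into the I antigen. Gcnt2 was at 114.8, 115.4 and 90.8 CPM in inside graft 1 to 3 and at 54.9, 69.3, 51.1 and 66.6 CPM in outside graft 1 to 4, without overlap. Its log2 fold change was 0.84 in voomWithQualityWeights (SE 0.15, adjusted P = 0.0411) and 0.82 in edgeR (SE 0.15, adjusted P = 0.0769). The voomWithQualityWeights call was lost on removal of any library other than inside graft 3, with adjusted P values from 0.0513 to 0.231. In 3 of the 9 tested enzymes all inside libraries were below all outside libraries, which held for 5.02% of all tested genes. In 1, Gcnt2, they were all above, which held for 5.65% of them. Mgat1, which starts complex N-glycans, was among the 3, with means of 227.0 and 280.2 CPM (log2 fold change -0.30, adjusted P = 0.344 in edgeR).

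Sialyltransferases add the sialic acid caps that can block or permit galectin binding. Of the 5 tested (of 6), 4 had a higher and 1 a lower fitted level inside, with a median log2 fold change of 0.13. None passed in edgeR or in voomWithQualityWeights (0 and 1 at an unadjusted P below 0.05), nor in DESeq2. The largest edgeR differences were those of St3gal4, with means of 15.0 and 10.1 CPM (log2 fold change 0.57), and St3gal1, with means of 4.68 and 3.29 CPM (log2 fold change 0.51), and both overlapped between groups. In voomWithQualityWeights the values were 0.43 for St3gal4 and 1.03 for St3gal1 (adjusted P = 0.374). St3gal1 was at 6.78 CPM in outside graft 1 and at 1.53 to 3.20 CPM in the other outside libraries, and without outside graft 1 its edgeR log2 fold change was 1.14.

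Of the 12 tested galectin-binding glycoproteins (of 13), 7 had a higher and 5 a lower fitted level inside, with a median log2 fold change of 0.15. In 4 of them the inside libraries all exceeded the outside libraries, which held for 5.65% of all tested genes. At an adjusted P of 0.05, edgeR and voomWithQualityWeights called 0 of them and DESeq2 called 2 (2.75% of all tested genes). At an unadjusted P below 0.05 were 4 in edgeR (9.55% of all tested genes) and 7 in voomWithQualityWeights (12.2%). Cd44, the hyaluronan receptor, was at 17.9, 10.9 and 27.9 CPM in inside graft 1 to 3 and at 0.107, 1.96, 2.98 and 2.997 CPM in outside graft 1 to 4. The groups did not overlap, with a fold of 9.30 (95% confidence interval 3.14 to 27.6, adjusted P = 0.109 in edgeR, 0.0546 in voomWithQualityWeights). Without outside graft 1 it passed in both tests (adjusted P = 0.0444 in edgeR and 0.0477 in voomWithQualityWeights), and without inside graft 2 in voomWithQualityWeights (adjusted P = 0.0261). Cd44 had the same order over the inside libraries as the neutrophil and monocyte sums, lowest in inside graft 2 and highest in inside graft 3, and their part in its difference was not tested. Lag3, a checkpoint receptor that galectin-3 binds, had means of 80.4 and 58.2 CPM (log2 fold change 0.47, adjusted P = 0.291 in edgeR).

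Genes that respond to damaged vesicles, to which galectin-3 and galectin-8 are recruited, were close to the level of all genes. Of the 7 tested (of 8), 5 had a higher and 2 a lower fitted level inside, with a median log2 fold change of 0.05. None passed in edgeR or in voomWithQualityWeights (0 and 1 at an unadjusted P below 0.05), nor in DESeq2, and Calcoco2 had 0 counts. Optn, an autophagy receptor, was at 15.1, 20.0 and 26.9 CPM in inside graft 1 to 3 and at 0.107, 12.4, 5.51 and 7.86 CPM in outside graft 1 to 4. Its groups did not overlap, and its log2 fold change of 1.67 had an adjusted P of 0.56 in edgeR. Trim16, a ligase known to act with galectin-3 at ruptured lysosomes, was at 3.77, 1.42 and 1.35 CPM in inside graft 1 to 3 and at 11.4, 1.33, 2.17 and 2.07 CPM in outside graft 1 to 4. Its groups overlapped, and outside graft 1 alone stood high. The log2 fold change was -0.96 in edgeR (adjusted P = 0.796) and -0.08 in voomWithQualityWeights, and it turned to 0.23 in edgeR without outside graft 1. The weight of outside graft 1 in voomWithQualityWeights, 0.448, was the lowest of the 7 libraries.

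**Figure D5:**
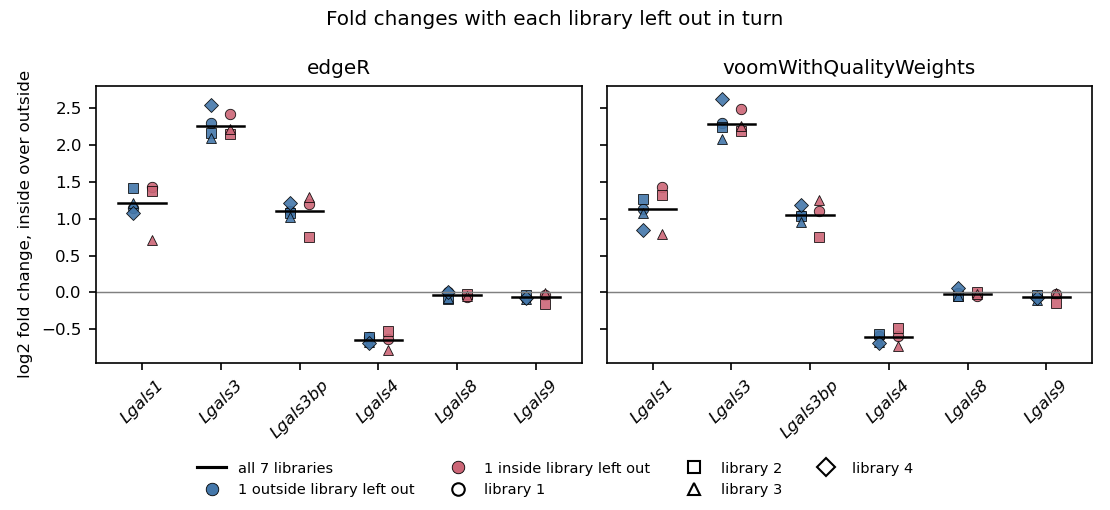
Log2 fold change of each galectin gene (left, edgeR; right, voomWithQualityWeights) with all 7 libraries (line) and after removal of each single library (symbols by library number, blue outside and red inside graft). In edgeR, Lgals3 stayed between 2.09 and 2.54 and Lgals3bp between 0.75 and 1.30, whereas Lgals8 moved to either side of 0.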

How the data were processed

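Microglia of 3 inside graft and 4 outside graft libraries were compared, and groups came from the sample labels. Per the methods, RNA (SMART-Seq v4, Nextera XT, single reads) was aligned with STAR and counted with featureCounts; the submitters' processing notes name STAR 2.7.2a, featureCounts 1.6.2, bcl2fastq 2.18, GENCODE M21 and GRCm38.p6. The authors deposited raw counts per gene name, with exons summed, multi-mapping reads left out and strand ignored. Totals were 18644807 to 25882122 per library. No molecular identifiers were used, so amplified reads do not count single molecules.

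From these counts, CPM, RPKM and tests were computed in R 4.3.3 over all 15257 genes kept by filterByExpr, with TMM factors. The tests were edgeR 4.0.16 (glmQLFit and glmQLFTest, robust=FALSE) and limma 3.58.1 (voomWithQualityWeights, the test in the study's methods), two-sided, with Benjamini-Hochberg adjustment over all tested genes. The SE of an edgeR fold change is that implied by its F statistic. The library weights in voomWithQualityWeights were 0.448, 0.944, 1.71 and 1.76 for outside graft 1 to 4. For inside graft 1 to 3 they were 1.07, 0.915 and 0.799. Calls were made at an adjusted P of 0.05, with 0.01 as an alternative. DESeq2 1.42.0, other normalizations, other filters, robust=TRUE, voom without weights, the replicate number as a block and each library left out were alternatives. Scripts were tested on simulated data. The 9 pairs of libraries within a group differed beyond sampling noise (lowest chi-square over its degrees of freedom, 16.6).

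The members and gene lists were chosen with earlier results of these data known. Named were all 6 members, from each pathway list the genes past an adjusted P of 0.05 and the 2 with the largest absolute edgeR log2 fold change, and the 3 transcripts most correlated with each member. Genes named as examples of marker lists were chosen after their values were seen. No sequence of the proteins was used here. A listed marker gene is not reported here.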

Additional observations from a re-analysis of the deposited data

How the results depend on the processing

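Lgals3, Lgals3bp, Lgals1, Lgals4 and Lgals9 kept their direction under every alternative listed in the methods, in both tests. The Lgals3 call was lost in edgeR without inside graft 1 or 3 or any 1 outside library, and in voomWithQualityWeights without outside graft 3 or 4. The log2 fold change of Lgals3 (2.26 in edgeR, 2.28 in voomWithQualityWeights) ran from 2.09 to 2.54 and from 2.07 to 2.63 with 1 library left out. Its adjusted P then ran from 0.0476 to 0.126 in edgeR and from 0.013 to 0.116 in voomWithQualityWeights, and over all alternatives to edgeR from 8.55e-09 (DESeq2) to 0.126. At a threshold of 0.01 the Lgals3 values of 2.26 and 2.28 were not called.

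Lgals3bp became called against edgeR's 1.10 with every gene of at least 1 count (1.10, adjusted P = 0.00117), with at least 10 counts in every library (1.11, adjusted P = 0.022) and with DESeq2 (1.11, adjusted P = 5.3e-05). In voomWithQualityWeights it became called with at least 10 counts in every library (1.04, adjusted P = 0.0155), and without inside graft 3 (1.25, adjusted P = 0.0471). With 1 library left out, Lgals3bp ran from 0.75 to 1.30 in edgeR and from 0.75 to 1.25 in voomWithQualityWeights. Lgals1 ran from 0.71 to 1.43 and from 0.80 to 1.43, Lgals4 from -0.78 to -0.53 and from -0.72 to -0.48, and Lgals9 from -0.16 to -0.011 and from -0.15 to -0.0045. Lgals8, at -0.04 and -0.02, changed sign within -0.087 to 0.0070 (without outside graft 1 or, at 0.0063, outside graft 4) in edgeR and within -0.049 to 0.061 in voomWithQualityWeights (without outside graft 4).

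The number of galectin genes called, 1 in each test, became 2 in edgeR under both other filters and with DESeq2, ran from 0 to 1 with a library left out, and was 0 at 0.01. In voomWithQualityWeights it became 2 with at least 10 counts in every library, ran from 0 to 2 with a library left out, and was 0 at 0.01. Over all genes, the 15 calls of edgeR became 366 with every gene of at least 1 count, 92 with at least 10 counts, 420 with DESeq2, 10 with library size alone or robust=TRUE, and 0 to 73 with a library left out. The 75 calls of voomWithQualityWeights became 225 and 211 with these filters, 10 without quality weights and 1 to 207 with a library left out. These filters tested 29525 and 12066 genes, more and fewer than the 15257 used, and the cause of the larger counts was not tested. Trim16 changed sign in edgeR within -1.60 to 0.23 with a library left out (positive without outside graft 1), and in voomWithQualityWeights within -0.67 to 0.096 and, at 0.031, with every gene of at least 1 count.

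Whether libraries with the same replicate number shared a mouse is not given in the sources used here, and the numbers were not taken as pairs. Deviations of same-numbered libraries correlated at -0.0432, 0.0902 and 0.0666 over 3 pairs, and not every sample correlated best with its own number. With the replicate number as a block and outside graft 4 left out, Lgals8 changed sign to 0.011 in edgeR and 0.038 in voomWithQualityWeights, and Lgals3bp became called in voomWithQualityWeights at 1.27 (adjusted P = 0.00202), which made 2 galectin genes. The block moved the calls over all genes from 15 to 43 and from 75 to 265. Levels of the 6 genes on total counts in place of TMM-scaled counts moved by less than 1 SD. Low counts limit Lgals1 and Lgals4, with 56 to 306 counts per library, and also Lgals3 outside the graft, with 101 to 242 counts per library.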
